A study of Mus musculus with 4 samples.

Results

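The *Tbx15* locus on mouse chromosome 3 was covered by 188 probes of 60 nt in 82 numbered fragments, out of 19805 probes in 10582 fragments on the whole array. The members are all probes whose fragment number lies between 109280 and 109370, whatever their values. The window itself was set around replication origins that the study called on the arrays of 300–800 nt strands. High values among the members in those strands were therefore favoured in advance. The supplementary list of origins (ORIs) places 3 ORIs here, namely the one at the gene model *Hmm112720* in fragments 109320 and 109321, the one at the *Tbx15* CpG island in fragment 109330, and ORI 109331, to which it gives no CpG island. Nascent strands and genomic DNA came from the untreated mouse ES cell line PGK12.1, described in the labels as female and pluripotent, and both DNAs were hybridised together. There were 2 arrays with strands of 300–800 nt (nascent strands in Cy3) and 2 arrays with strands of 100–600 nt (nascent strands in Cy5). The fraction, the dye, the array print, the software version and the scan changed together and cannot be told apart. Ratios below are log2 values of nascent strands relative to genomic DNA after loess within each array, and the brightness of 1 dye is called a signal. All arrays came from the same cell line and the labels name no separate cultures, so that p-values measure the spread between arrays only, which may be technical. The paper describes the 2 hybridisations of 300–800 nt strands as biological replicates. DNA hybridisation gives no level of the genes that mark pluripotent cells, so the labelled cell type was not checked.

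Replication starts at ORIs, where the origin recognition complex loads the MCM helicase in G1 and leading strands are laid down in both directions in S phase. Short nascent strands that begin with RNA resist λ-exonuclease, which degrades randomly sheared DNA, and they are therefore enriched in sequences close to ORIs. CpG islands are stretches of unmethylated, CG-rich DNA that hold many mammalian promoters and many ORIs. *Tbx15* encodes a T-box transcription factor that acts in the development of the skeleton, skin and muscle. CG dinucleotides are rare in the rest of the genome, where their cytosine is mostly methylated.

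The sequences of the 4 listed probes are given first because the ORIs were assigned to them, followed by the probe with the highest ratio of the locus, the second positive probe of the CpG island fragment, and the highest probe of the flanks. A probe is named by its fragment and by the offset in its name, and CG dinucleotides are in capitals.
Fragment 109320, probe 130 (*Hmm112720*), chr3:98660819-98660878: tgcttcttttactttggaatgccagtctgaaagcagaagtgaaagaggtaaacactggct
Fragment 109321, probe 380 (*Hmm112720*), chr3:98661257-98661316: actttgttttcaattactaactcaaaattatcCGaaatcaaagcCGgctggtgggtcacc
Fragment 109330, probe 1310 (*Tbx15* CpG island), chr3:98665188-98665247: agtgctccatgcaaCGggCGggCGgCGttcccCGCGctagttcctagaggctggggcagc
Fragment 109331, probe 20 (ORI 109331), chr3:98668942-98669001: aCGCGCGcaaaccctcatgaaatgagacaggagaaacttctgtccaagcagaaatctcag
Fragment 109326, probe 440 (not listed): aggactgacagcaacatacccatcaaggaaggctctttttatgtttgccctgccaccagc
Fragment 109330, probe 670 (not listed), chr3:98665828-98665887: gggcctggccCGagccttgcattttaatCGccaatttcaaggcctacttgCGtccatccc
Fragment 109281, probe 310 (not listed): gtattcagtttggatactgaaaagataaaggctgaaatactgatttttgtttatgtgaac
The coordinates are those of Ensembl mouse build 35, and all sequences read 5′ to 3′. The CpG island probe held 6 CG dinucleotides at a C+G content of 70%, and 0.212% of all probes held at least 6. It was the only member with this number. The probe of ORI 109331 held 3 CG dinucleotides, all of them within its first 7 bases, at 48.3% C+G. Probe 440 of fragment 109326 held none at 50% C+G, and probe 310 of fragment 109281 held none at 30% C+G.

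The positions within a fragment run against the offset, since the listed start plus the offset gave 1 sum in each of the 28 fragments with several listed probes. Fragment 109320 thus spans chr3:98659111-98661008, fragment 109321 chr3:98661057-98661696, fragment 109330 chr3:98665129-98666557 and fragment 109331 chr3:98666571-98669021. The CpG island probe lies 3931 bp above the nearer *Hmm112720* probe and 3754 bp below the probe of ORI 109331. Fragments 109323 to 109329 lie between the placed fragments in the order of their numbers, and their lengths put probe 440 of fragment 109326 between 1735 and 2436 bp below the CpG island probe. The other fragments are described by their order only.

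The RefSeq annotation of GRCm38.p6 was reached through sequence alone, since no genome of build 35 was used here. Probe 320 of fragment 109312 matched all 60 bases of chr3:99241576-99241635 in GRCm38.p6, within the promoter of the RefSeq gene *Gm46817*, which lies on the minus strand. The *Tbx15* gene spans chr3:99240348-99354260 in that build and covers this probe. The 53 member fragments with higher numbers, and with them the fragments of all 3 ORIs, follow on the side of the gene body, and an array probe beyond the last of these fragments still matched at chr3:99351989-99352048, inside the gene. No placed fragment of chromosome 3 was out of order (38 fragments). The promoter probe of *Gm46817* had ratios of 0.21 on both arrays of 300–800 nt strands, and 0.08 and -1.28 on the arrays of 100–600 nt strands. The 6 probes of fragment 109312, whose low end lies 8 bp below that of the annotated *Tbx15* gene, had means from -0.23 to 0.43 in 300–800 nt strands. None of them was positive in that fraction.

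A probe was called positive when the mean of its fraction lay above the 0.95 quantile of all probes, at 1.16 in 300–800 nt strands and 0.64 in 100–600 nt strands. All 188 members had a value on both arrays of 300–800 nt strands, whereas 174 and 164 had one on replicates 1 and 2 of the 100–600 nt strands, and 153 had one on all 4 arrays. In the longer strands 15 members were positive (7.98%), against 5.0% of all probes by construction. On each of the 2 arrays alone 11 members were positive, 5.85% against 4.24% of all probes. The difference of these shares was not tested. It was favoured in advance by the 4 listed probes, which the study chose on the arrays of the longer strands. The median ratio of the members was 0.17 and that of all probes was 0.00, and the members ranged from -1.69 to 2.14. From the first to the last ORI fragment the 32 probes had a median of 0.50, with 84.4% of them above 0, against 50.2% of all probes. The 80 probes before them had a median of 0.11 and the 76 probes after them had a median of 0.02. Of the 15 positive probes, 7 lay in the central stretch, 2 before it and 6 after it. The central stretch is bounded by the ORI fragments and holds all 4 listed probes. Its higher values were therefore favoured in advance, and no test was made of them.

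**Figure D1:**
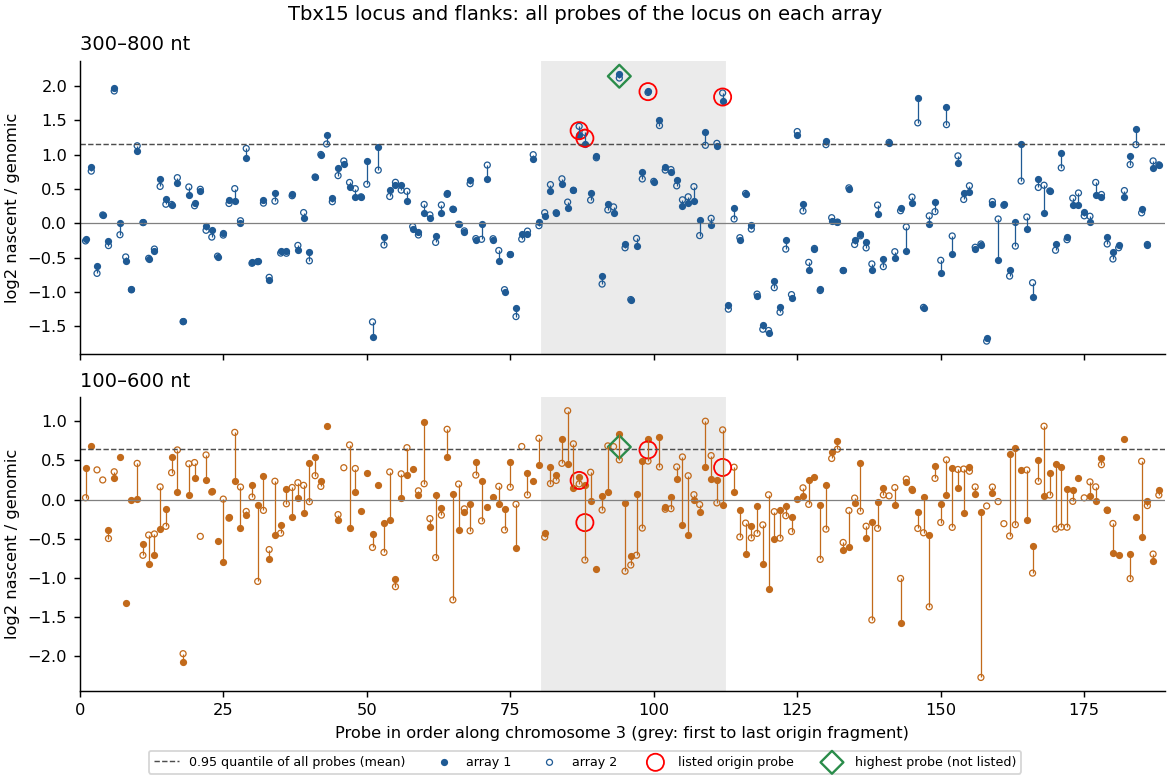
Log2 ratio (y axis, nascent over genomic) for the 188 probes in their order along chromosome 3 (x axis), with filled points for array 1, open points for array 2 and a line joining them. The listed probes (red circles) lie at 1.24 to 1.92 in 300–800 nt strands (upper panel), below the unlisted probe at 2.14 (green diamond), and the arrays lie much farther apart in 100–600 nt strands (lower panel).

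The 2 arrays of 300–800 nt strands lie on 1 slide and differed by less than the sampling noise of repeated spots. The SD between them was 0.092 per probe, where the repeated spots predicted 0.11, a variance ratio of 0.685. Their mean is therefore 1 sample in the comparison of the fractions where this is stated, and values are given per array. Among the members the SD was 0.090 between these arrays and 0.36 between the arrays of 100–600 nt strands. The correlation across members was 0.984 between the former (n = 188) and 0.512 between the latter (n = 153), and it is across probes of the same libraries, which are not replicates. At 180 of 188 members the arrays of longer strands had the same sign, and at 108 of 153 members those of shorter strands did. Signs were not counted over all probes, where the correlation was 0.984 in the longer strands (n = 19805) and 0.594 in the shorter (n = 15478). With only 2 arrays of each kind the precision of all values is limited.

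At the *Tbx15* CpG island the listed probe had ratios of 1.93 and 1.91 on the arrays of 300–800 nt strands, with single spots between 1.79 and 2.03. The ratios of the 100–600 nt strands were 0.78 and 0.49. It was the third highest member in the longer strands, at the 99.6th percentile of all probes, and was just under the threshold in the shorter strands, with a mean of 0.63. Further into the fragment the ratio in the longer strands was 0.61 on both arrays at probe 930, which has 66.7% C+G and had no value in the shorter strands. It was 1.51 and 1.43 at probe 670, 640 bp from the listed probe. Probes 430 and 90 followed with 0.82 and 0.78, and with 0.76 and 0.78. All 5 probes of the CpG island fragment were above 0.60 on both arrays, with a dip between the positive probes 1310 and 670. Probe 670 had 100–600 nt ratios of 0.80 and 0.42, close to the listed probe, while probes 430 and 90 lay between -0.12 and 0.04.

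ORI 109331 had the widest scan, with 9 probes over its fragment. The listed probe 20 at the upper end had 1.78 and 1.90 in 300–800 nt strands. Probe 450, 430 bp away, had 1.13 and 1.17, a mean of 1.15 just under the threshold. Probe 620 had -0.02 and 0.07, and probe 816 beyond it had 1.34 and 1.14. Towards the CpG island the ratio was 0.05 and -0.18 at probe 1088 and between 0.26 and 0.63 at the 4 probes 1360, 1680, 2000 and 2230. The fragment therefore had high ratios at probes 20, 450 and 816 with a probe near 0 among them, 196 bp from one and 170 bp from another. The 2 arrays of 100–600 nt strands disagreed at the listed probe, with -0.071 and 0.89. Probe 816, at 0.42 and 1.00, was the only probe of this fragment that was positive in both fractions.

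ORI 109331 was also scanned by Q-PCR and assayed in a luciferase reporter in the study, and several of those primers meet array probes. A pair of them is shown because they tie the probes to those assays. The first, used in both assays, lies wholly within probe 450 at chr3:98668514-98668533.
Reporter and Q-PCR primer on probe 450: agagagtctccaggccctgg
Q-PCR primer on probe 20: ttgcatccacgcgcgcaaac
The second primer shares 12 bases with the start of probe 20 and lies at chr3:98668934-98668953. Another Q-PCR primer pair overlaps both ends of probe 620, the probe with -0.02 and 0.07, and the reporter primer and its Q-PCR partner both share bases with probe 450, the probe with 1.13 and 1.17.

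At *Hmm112720* probe 130 of fragment 109320 had 1.29 and 1.41 in 300–800 nt strands, and probe 380 of fragment 109321, 438 bp away, had 1.16 and 1.33. These were the lowest of the listed probes, and on replicate 1 the latter lay just under the threshold of the mean. The 6 other probes of fragment 109320 lay between 0.10 and 0.65 on the arrays of longer strands. For the shorter strands probe 130 had 0.29 and 0.20, and probe 380 had 0.18 and -0.77. Within the same fragment probe 670, which had 0.22 and 0.31 in the longer strands, was positive in the shorter strands with 0.45 and 1.14. Probe 980 had 0.78 and 0.46 in the shorter strands, and it was the highest of the fragment on replicate 1, whereas probe 670 was the highest on replicate 2.

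**Figure D2:**
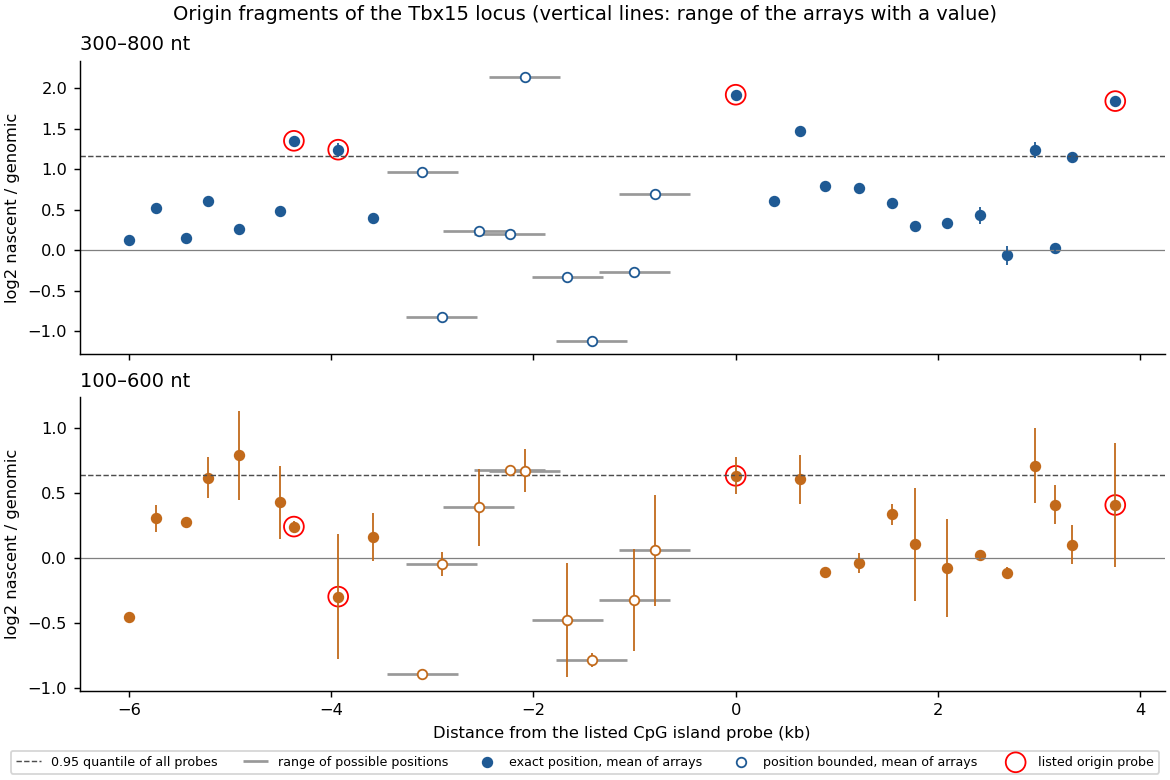
Log2 ratio (y axis, mean of the arrays with their range as vertical lines) against the distance from the listed CpG island probe in kb (x axis) for the probes from fragment 109320 to fragment 109331. Open points have a position known only within the grey bar. In 300–800 nt strands probes both below and above 0.5 lie between the 3 ORIs (red circles at -4.37 and -3.93, at 0 and at 3.75 kb). The highest of them is an unlisted probe at 2.14, and unlisted probes 670 of fragment 109330 and 816 of fragment 109331 are positive at 1.47 and 1.24.

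The highest ratio of the locus was that of a probe that the list does not hold. The study listed ORIs by the enrichment of windows of probes, with further conditions on the window mean and its central probe. Those criteria were not applied here, and a single high probe does not meet them by itself. Probe 440 of fragment 109326, between *Hmm112720* and the CpG island, had 2.17 and 2.12 in 300–800 nt strands, with 4 spots between 2.12 and 2.18. The shorter strands gave 0.84 and 0.51. It ranked 38th of all 19805 probes in the longer strands and was 1 of 3 members that were positive in both fractions (1.62%, against 0.677% of all probes). Its neighbours were low, with 0.16 and 0.24 at probe 588, which lies 148 bp away, and -0.31 and -0.35 at probe 20, which lies 420 bp away. Strands of at least 300 nt are longer than the nearer of these distances. In the shorter strands probe 588 had 0.68 on the single array with a value, and probe 20 had -0.04 and -0.92. The next fragments towards the CpG island had -1.12 and -1.11 (probe 50 of 109327), -0.32 and -0.22 (probe 40 of 109328), and 0.75 and 0.65 (probe 330 of 109329).

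Set beside the 150 probes of the whole list that matched an array probe, which the study chose on these arrays, the CpG island probe ranked 28th in 300–800 nt strands and the probe of ORI 109331 ranked 40th. The *Hmm112720* probes ranked 112th and 130th. The median of the listed probes was 1.53. The unlisted probe 440 of fragment 109326 lay above 140 of the 150 in its own ratio, which is not the window criterion of the list.

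A ratio can be high through the nascent strands or through the genomic DNA, so both signals were read apart. On the arrays of 300–800 nt strands the CpG island probe had nascent signals of 6695 and 6656, at the 96.5th percentile of all probes on both, and genomic signals of 1199 and 1205, at the 71.7th and 72.3rd percentiles. Probe 440 of fragment 109326 had nascent signals of 36639 and 37530 (99.6th percentile on both), with genomic signals of 3727 and 3835 (96.2nd and 96.4th percentiles). At the probe of ORI 109331 the nascent signals were 763 and 795, at the 50.6th and 52.9th percentiles, and the genomic signals were 281 and 271, at the 6.1st and 5.6th percentiles. At the *Hmm112720* probe 130 the nascent signals were at the 42.2nd and 44.7th percentiles and the genomic signals at the 9.2nd and 8.5th. The CpG island probe and the unlisted probe thus had nascent signals in the top of the array, whereas these probes of the other ORIs had nascent signals near its middle over low genomic signals. Of the 15 positive members, 6 had nascent signals above the 75th percentile on both arrays and 8 had genomic signals below the 25th. Among all 991 positive probes these shares were 37.6% and 59.8%. Whether hybridisation strength of a probe plays a part in these ratios was not tested.

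**Figure D3:**
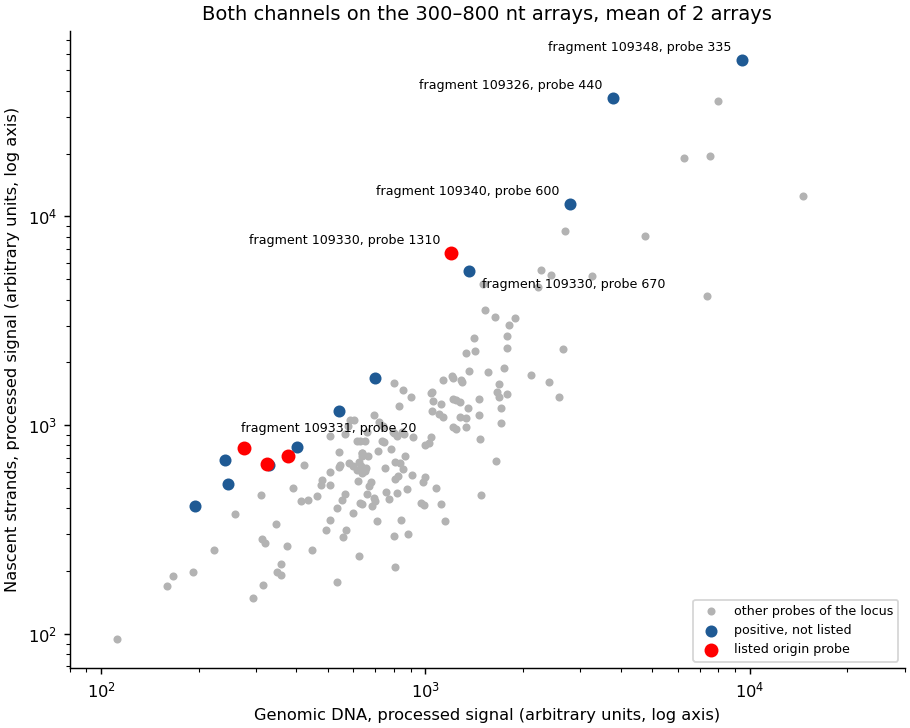
Processed signal of the nascent strands (y axis) against that of the genomic DNA (x axis), both in arbitrary units on log axes, for the 188 probes as means of the 2 arrays of 300–800 nt strands. The CpG island probe 1310 and probe 440 of fragment 109326 lie above the cloud at high signals, and the other listed probes (red) lie at its left edge with genomic signals below 400.

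The processing acts differently on these groups. Computed in 5 ways (as reported, with median centring in place of loess, with normexp background correction, with all spots kept, and from the deposited log ratio, whose order was that of median centring), 7 of the 15 probes were positive each time. These were both positive probes of the CpG island fragment, probe 20 of fragment 109331, probe 440 of fragment 109326, and probe 600 of 109340, probe 335 of 109348 and probe 10 of 109366 in the flank. The matching share among all 991 positive probes was not counted, so this is no trait particular to the locus. The 5 ways overlap and are not separate checks. Probe 1310 had means of 1.92 as reported, 2.57 with median centring and 2.01 with normexp. The probe of ORI 109331 had 1.84, 1.59 and 0.97 in the same order. The *Hmm112720* probe 130 had 1.35, 1.10 and 0.63, and probe 380 had 1.24, 1.04 and 0.71, so that both fell under the threshold of 1.34 with median centring and of 0.85 with normexp. They were positive in 2 of the 5 ways, as were probe 816 of fragment 109331 and probes 1000 of 109339, 332 of 109352 and 1799 of 109356 in the flank. Probe 440 of fragment 109326 was the highest member in all 5, at 3.39 with median centring and 2.15 with normexp.

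In the flank below the ORIs probe 310 of fragment 109281, an A+T-rich probe, had 1.97 and 1.93 in 300–800 nt strands and 0.27 and 0.35 in 100–600 nt strands. Its 3 kept spots in the longer strands lay far apart, between 1.40 and 2.46, and the value of replicate 1 rested on a single spot. Its neighbours in the fragment had -0.26 and -0.32, and 0.01 and -0.17. With all spots kept its value on replicate 1 was 0.26, and its mean of 1.10 was then under the threshold. Probe 960 of fragment 109303 had 1.29 and 1.16, next to probe 1100 with 0.99 and 1.00, and had 0.94 on the single array of 100–600 nt strands with a value. The 7 probes of that fragment included 6 above 0 on both arrays of longer strands.

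In the flank above the ORIs, inside the annotated gene, 6 probes were positive in 300–800 nt strands. Probe 332 of fragment 109352 had 1.83 and 1.46, and probe 1799 of fragment 109356 had 1.70 and 1.44. The arrays agreed more closely at probe 1000 of 109339 (1.28 and 1.34), probe 600 of 109340 (1.20 and 1.15) and probe 335 of 109348 (1.18 and 1.18), whereas probe 10 of 109366 had 1.37 and 1.15. None of these 6 was positive in 100–600 nt strands, where their values lay between -0.38 and 0.51. Most positive probes of the array were like them in this, as 991 probes were positive in the longer strands and 133 in both fractions. Probe 335 of 109348 had the strongest nascent signals of the positive members, 53291 and 58685, over genomic signals of 9245 and 9695. With median centring it rose to 2.66, second among the members.

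The ratio dropped at the next probe above ORI 109331, whose distance is not known here. After the listed probe of that ORI at 1.78 and 1.90 the next probe on the array, probe 1360 of fragment 109332, had -1.18 and -1.25. The 6 probes of fragment 109332 ranged from -1.22 to 0.43, and 33.3% of them were above 0. The 12 probes of fragments 109332 to 109338, up to the next positive probe, had a median of -0.97 in the longer strands and -0.32 over the 11 with a value in the shorter strands. Their ends were set by the positive probes, so no test was made of them. One of them, probe 10 of fragment 109335, was among the 3 lowest of the flanks with -1.60 and -1.56. The lowest of all was probe 80 of fragment 109357 with -1.67 and -1.71, and probe 30 of fragment 109306 had -1.66 and -1.43. Probe 10 of fragment 109335 had -1.14 and 0.06 in the shorter strands, and probe 30 of fragment 109306 had -0.44 and -0.61. Probe 650 of fragment 109289, named here after its values were seen, was low on all 4 arrays, with -1.42 and -1.43 in the longer and -2.08 and -1.97 in the shorter strands.

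In 100–600 nt strands 10 members were positive (5.41%, against 5.0% of all probes by construction). Of these, 5 rested on 1 array, and no member was positive on each of the 2 arrays alone, against 1.3% of all probes. The others were probe 590 of fragment 109312 with 0.55 and 0.90, probe 20 of 109340 with 0.75 and 0.64, and probes 670 of 109320, 440 of 109326 and 816 of 109331 given above. On 1 array only were probe 750 of 109280 (0.69), probe 960 of 109303 (0.94), probe 890 of 109318 (0.68), probe 588 of 109326 (0.68) and probe 530 of 109365 (0.78). None of the 4 listed probes was among the positive members of this fraction. Of the 991 probes of the whole array that were positive in the longer strands, 133 were positive in both fractions.

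Each fraction was also tested against 0 by limma with Benjamini-Hochberg adjustment over all probes. In 300–800 nt strands 99 members were above 0 (52.7%, against 42.9% of all probes) and 69 were below (36.7%, against 42.6%). The spread in this test is that between 2 arrays of 1 slide. In 100–600 nt strands 4 of 153 members were above 0 (2.61%, against 3.37%) and 11 were below (7.19%, against 9.08%). The 4 above 0 were probe 590 of fragment 109312, probe 670 of 109320, probe 816 of 109331 and probe 20 of 109340. With normexp, limma called none of the members above 0 and 4 below (9 and 18 at an unadjusted p under 0.05), against 0.814% and 5.05% of all probes. None of the listed probes passed, the nearest being the CpG island probe with 0.63 ± 0.22 (SE, limma adjusted p = 0.0633).

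**Figure D4:**
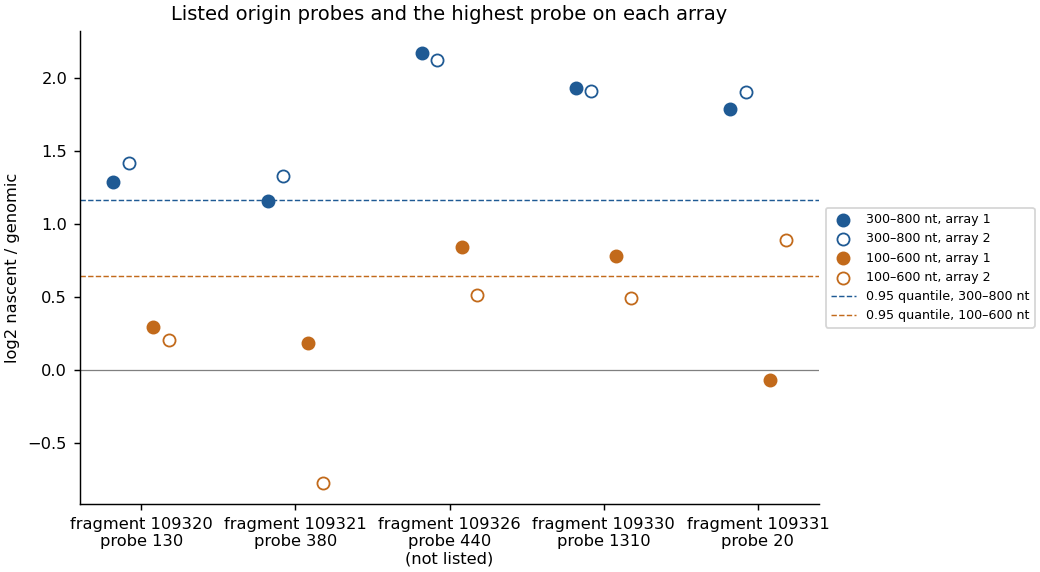
Log2 ratio (y axis) of the 4 listed probes and of probe 440 of fragment 109326 on each of the 4 arrays, with the 0.95 quantile of each fraction as a dashed line. In every probe both 300–800 nt values (blue) lie above both 100–600 nt values (orange), and the orange points lie farthest apart at probe 20 of fragment 109331 and probe 380 of fragment 109321. The choice of probes favoured this order, as the study listed probes on the 300–800 nt arrays and probe 440 is the highest member there.

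Between the fractions, limma on the 4 arrays called 31 of 153 members higher in 300–800 nt strands (20.3%, against 19.0% of all probes) and 18 lower (11.8%, against 16.2%). With the arrays of 300–800 nt strands counted as 1 sample, 8 members were higher (5.23%, against 4.32% of all probes) and 0 were lower (against 1.75%), with 26 and 6 at an unadjusted p under 0.05. The spread in this fit comes from the 2 arrays of 100–600 nt strands, and the single sample of longer strands is assumed to vary like them. The shares of members lie near those of all probes in both fits. With normexp, limma called 7 higher and 0 lower (25 and 10 at an unadjusted p under 0.05), against 3.53% and 2.2% of all probes. Of the listed probes, the CpG island probe was higher in the longer strands by 1.29 ± 0.16 (SE, limma adjusted p = 0.00889), ORI 109331 by 1.43 ± 0.33 (adjusted p = 0.0298), and the *Hmm112720* probes 130 and 380 by 1.11 ± 0.14 (adjusted p = 0.00919) and 1.54 ± 0.33 (adjusted p = 0.0254). The study chose these 4 probes on the arrays of 300–800 nt strands. That choice favoured this direction in advance, so the p-values are no independent evidence of it. With those arrays counted as 1 sample, probe 380 alone of these 4 passed (limma adjusted p = 0.0414), and it did not pass with normexp (limma adjusted p = 0.184) or with the arrays scaled to a common MAD (limma adjusted p = 0.0852). The limma adjusted p was then 0.0516 at the CpG island, 0.0529 at ORI 109331 and 0.0844 at probe 130. With normexp the limma adjusted p was 0.0352 at the CpG island, 0.652 at ORI 109331 and 0.352 at probe 130, and with scaling it was 0.0821, 0.114 and 0.0374. Probe 440 of fragment 109326 differed by 1.47 ± 0.17 (limma adjusted p = 0.00809), and by the same amount with an adjusted p of 0.0312 when those arrays were counted as 1. It passed with normexp (limma adjusted p = 0.0347) and not with scaling (limma adjusted p = 0.0704). This probe was picked as the highest member in the longer strands. That choice too favoured the direction, so its p-values are no independent evidence.

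The other 6 members called in the fit with 1 sample of longer strands were probe 310 of 109281 (1.64), probe 332 of 109352 (1.91), and 4 probes outside the rule for naming that are given because they were called: probe 430 of 109308 (1.65), probe 140 of 109349 (1.50), probe 20 of 109365 (1.78) and probe 10 of 109369 (1.60). At these 4 the shorter strands were below 0 on both arrays, with values from -1.58 to -0.70, and the longer strands above 0. With normexp, probe 310 of 109281 and probe 332 of 109352 did not pass (limma adjusted p = 0.286 and 0.139), and the 4 others did. Across the members the correlation with C+G content was 0.111 in 300–800 nt strands (n = 188) and 0.287 in 100–600 nt strands (n = 185), against 0.004 and 0.189 over all probes. Between the fraction means it was 0.403 over 185 members and 0.363 over 19635 probes. These are descriptions across probes that share arrays and base composition.

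**Figure D5:**
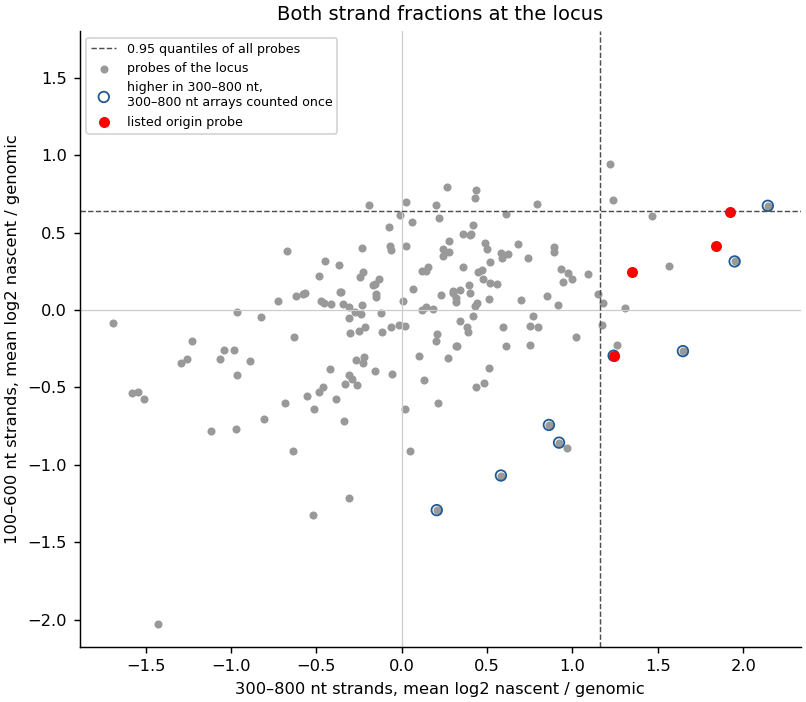
Mean log2 ratio in 100–600 nt strands (y axis) against that in 300–800 nt strands (x axis) for the 185 members with both, with the 0.95 quantiles of all probes as dashed lines. The 4 listed probes (red) lie to the right of the vertical line and below the horizontal one, and blue rings mark the 8 members higher in 300–800 nt strands with those arrays counted as 1 sample.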

How the data were processed

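Nascent strands and genomic DNA of PGK12.1 cells were compared on 4 two-colour Agilent arrays. The authors deposited spot intensities from Feature Extraction, for 100–600 nt strands after background subtraction and spatial detrending with no dye normalisation, and for 300–800 nt strands with it. The latter files also hold a log10 ratio (Cy5 divided by Cy3) deposited by the authors. The loess and ACME steps of the study are not in the files.

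Control spots and spots that the software marked as faulty were left out (1491 and 3450 of 21099 spots for 100–600 nt strands, 8 and 13 of 39610 for 300–800 nt strands). The log2 ratio was turned to nascent over genomic, loess-normalised per array (span 0.3, limma 3.58.1, R 4.3.3) and averaged over spots. Median processed signals were 102 to 821. Tests were limma with Benjamini-Hochberg adjustment at 0.05, checked on simulated data. Python 3.11.15 with pandas 2.3.3 made the summaries.

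Probe sequences came from the arrays, and positions from the supplementary list. Named were the listed probes, the other probes of the 3 ORI fragments, the positive probes of the flanks and the 3 lowest. Other probes between the ORIs, and those said to be named for their values, were chosen after their values were seen. The members and lists were chosen with earlier results of these data known. Alternatives were median centring, normexp with an offset of 50, all spots kept, the 0.90 quantile, scaling, the hybridisation number as a block, the 300–800 nt arrays as 1 sample, and leaving out each array. Values of probe 440 of fragment 109326 under the alternatives, and the positive calls from the deposited log ratio, were added after seeing the data. Q-PCR, histone and reporter measurements were not used here.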

Additional observations from a re-analysis of the deposited data

Results flagged for a closer look

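At 23 of the named probes the ratio of nascent strands over genomic DNA differed between the strand fractions in the limma test of the difference on the 4 arrays. Of all probes, this test called 19.0% higher and 16.2% lower in the longer strands. Many of the named probes were chosen by their values in the longer strands or because they were called. The number of calls and their direction therefore follow in part from that choice. The difference, 300–800 nt minus 100–600 nt on the log2 scale, was 1.64 at probe 310 of fragment 109281, 0.60 at probe 650 of 109289, 0.80 at probe 1100 of 109303, -1.02 at probe 30 of 109306 and 1.65 at probe 430 of 109308. It was 0.58 at probe 1760 and 1.11 at probe 130 of 109320, 1.54 at probe 380 of 109321, -0.78 at probe 260 of 109324 and 1.47 at probe 440 of 109326. In the CpG island fragment 109330 it was 1.29 at probe 1310, 0.86 at probe 670, 0.91 at probe 430 and 0.81 at probe 90. In fragment 109331 it was 1.04 at probe 450 and 1.43 at probe 20. Beyond the ORIs it was 1.27 at probe 600 and -0.68 at probe 20 of 109340, 1.50 at probe 140 of 109349, 1.91 at probe 332 of 109352, 1.29 at probe 1799 of 109356, 1.78 at probe 20 of 109365 and 1.60 at probe 10 of 109369. Of the 23, 8 were called with the 300–800 nt arrays as 1 sample, 7 with normexp, 13 with scaling and 21 with median centring. The 3 negative differences were lost in the first pair of these fits. The fraction cannot be told apart from the dye, the array print and the software.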

How the results depend on the processing

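Of the 153 members with a value on all 4 arrays, 49 differed between the fractions. The count was 7 with normexp, 17 with the arrays scaled to a common MAD (15 higher and 2 lower, against 10.7% and 7.75% of all probes) and 8 with the 300–800 nt arrays as 1 sample, and leaving out each array gave 8 to 132, lowest without replicate 2 of the 300–800 nt strands (10 without replicate 1) and highest without replicate 2 of the 100–600 nt strands (113 without replicate 1). Of all probes, 4.28% were higher and 1.62% lower in the former case, and 38.2% and 36.6% in the latter. A lone array was assumed to vary like the pair of the other fraction. With normexp, 108 members in place of 168 were off 0 in 300–800 nt strands (64 above and 44 below, against 28.3% and 28.8% of all probes). In 100–600 nt strands 4, all below 0, were off 0 in place of 15 (against 0.814% of all probes above and 5.05% below). The 0.90 quantile made 25 members positive in the longer and 18 in the shorter strands, against 10% of all probes by construction. Leaving out an array gave 11 to 16 positive members in the longer and 6 to 10 in the shorter strands (6 without replicate 1), and 0 were positive on each 100–600 nt array alone. In 100–600 nt strands the sign of 2 listed probes turned without replicate 2, to 0.18 at probe 380 of 109321 (with -0.77 without replicate 1) and to -0.0708 at probe 20 of 109331 (with 0.89 without replicate 1). Median centring called 31 higher and 11 lower in place of 31 and 18, against 17.3% and 13.7% of all probes. The other alternatives kept each count within 1.5 times. The hybridisation number does not pair the arrays, as the replicate differences of the fractions had a correlation of -0.0101 across 15478 probes. With the number as a block 56 members differed (36 higher and 20 lower, against 22.4% and 19% of all probes). The depth of a hybridisation is limited by its signal over background, and with normexp 7 of the 49 differences were called.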
